A study of Macaca fascicularis with 16 samples.

Results

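The blood mononuclear cells of 4 cynomolgus macaques (Macaca fascicularis, of Mauritian origin) were sampled before any dose of NKTT320, the agent whose effect on invariant natural killer T (iNKT) cells the series follows. These 4 libraries, 1 each from LG04, LG11, LG12 and LG15, were chosen by the word pre-treatment in their titles from the 16 libraries of the series, and no later library entered any value. All 4 animals were untreated at that bleed and later received NKTT320, and the labels give no genotype, age or sex and no untreated control animal. The cells were unfractionated peripheral blood mononuclear cells (PBMC), so each value is an average over every cell type left in the gradient fraction. The 4 libraries are separate animals, and SD below is the spread over them.

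PBMC are the round-nucleus white cells of blood: T cells, B cells, natural killer (NK) cells, monocytes and a few dendritic cells. The density gradient that collects them is meant to leave neutrophils and red cells behind, while platelets often travel with the mononuclear layer. T cells are known by the CD3 chains of their receptor complex, B cells by CD20 (MS4A1) and CD79, NK and cytotoxic T cells by granzymes and perforin, and monocytes by CD14 or CD16 (FCGR3A). iNKT cells are rare T cells that read lipids on CD1D and depend on the transcription factor ZBTB16.

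The libraries held 6362826 counts (LG04), 7262622 (LG11), 4052676 (LG12) and 4783612 (LG15), and values in a series of 4 below are in this order of animals. Between 14522 and 14953 of 23602 gene symbols had a count in a library; thinned to the depth of LG12, the shallowest, the expected numbers were 14414, 14253, 14522 and 14674. In all, 12146 symbols had a mean of at least 1 CPM (counts scaled to a common library size by the TMM method), and 6674 had no count in any of the 4. A count of 3, taken as the floor of detection, was worth 0.401 CPM in LG11 and 0.637 CPM in LG12. Levels of different genes are compared in FPKM (fragments per kilobase of transcript, scaled to library size), which allows for gene length, and levels of 1 gene across animals in CPM. The spread of a gene is the SD over the 4 libraries of its log2 CPM, for the 6818 genes with a mean count of at least 100. An SD of at least 1 on that scale was called high and an SD of 0.2 or less low; 437 genes (6.41% of those measured) were high and 1643 (24.1%) were low, around a median of 0.30. Counts of members highest or lowest in 1 animal are read against all genes past the filter, of which 17.6% were highest in LG04, 27.9% in LG11, 30.6% in LG12 and 23.8% in LG15, and 30.3%, 17.9%, 31.2% and 20.6% lowest there.

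Per unit of length, hemoglobin RNA was the most abundant message in 3 of the 4 libraries and far lower in the fourth. HBB, the beta-globin chain, was listed at 79213 FPKM in LG11, 616 in LG12 and 112190 in LG15. In LG04 it was listed at 0 FPKM although 965142 counts were assigned to it, more than in any other library, so no mean FPKM is given for it. HBD, the delta chain, was at 46259, 9989.8, 83.3 and 13447 FPKM, and HBA1, an alpha chain, at 28588, 6642, 12.4 and 3884 FPKM. The 8 globin genes HBA1, HBA2, HBB, HBD, HBG1, HBG2, HBM and HBQ1 together took 19.9% of all counts in LG04, 4.57% in LG11, 0.0327% in LG12 and 5.97% in LG15. HBE1, an epsilon chain with 25490, 7506, 27 and 6220 counts, was not among these 8. The same 8 are meant wherever globin genes are left out below. LG04 stood highest and LG12 lowest for each of HBB, HBD and HBA1. In such unsorted RNA fewer cells of a type and less RNA per cell cannot be told apart, here and in every lineage result below. Globin reads of a macaque were counted on human gene models, and HBA1 and HBA2, and likewise HBB and HBD, are close copies, so the split within each pair is uncertain.

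After globin the leading messages were those of protein synthesis, antigen display and the cytoskeleton, which ran within 3-fold in the examples below. TPT1, a translation-associated tumor protein, was at 3930.3, 4374, 4336 and 6437 FPKM. B2M, the light chain of MHC class I, was at 2833, 4892, 3509 and 5995 FPKM. MALAT1, a nuclear noncoding RNA, was at 3574, 4307, 6272 and 3713 FPKM and alone took 3.37 to 5.66% of the counts of a library. LG12, which had the fewest globin counts, had the highest MALAT1 level, and LG15 the highest TPT1 and B2M. Of the 50 longer genes with the highest mean FPKM, 28 were cytosolic ribosomal protein genes, led by RPS27 at 1962, 2689, 3754 and 3150.4 FPKM, RPL38 at 1908, 2439, 3473 and 2989 FPKM and RPS14 at 2196, 2380.4, 2694 and 2561 FPKM. The thymosins TMSB4X (1105, 1829.5, 1654 and 3044 FPKM) and TMSB10 (1159.9, 2154, 1873 and 1682 FPKM), which bind actin monomers, and ACTB, beta-actin itself (1603, 2258, 1136 and 1861 FPKM), were the leading cytoskeletal genes. In FPKM, RPS27, RPL38 and RPS14 were each lowest in LG04 and highest in LG12, while in TMM-scaled CPM RPS14 was at 984, 884, 918 and 1029.8, nearly level. FPKM divides by all counts of a library, globin included, whereas the TMM scale does not follow a few very abundant genes.

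**Figure D1:**
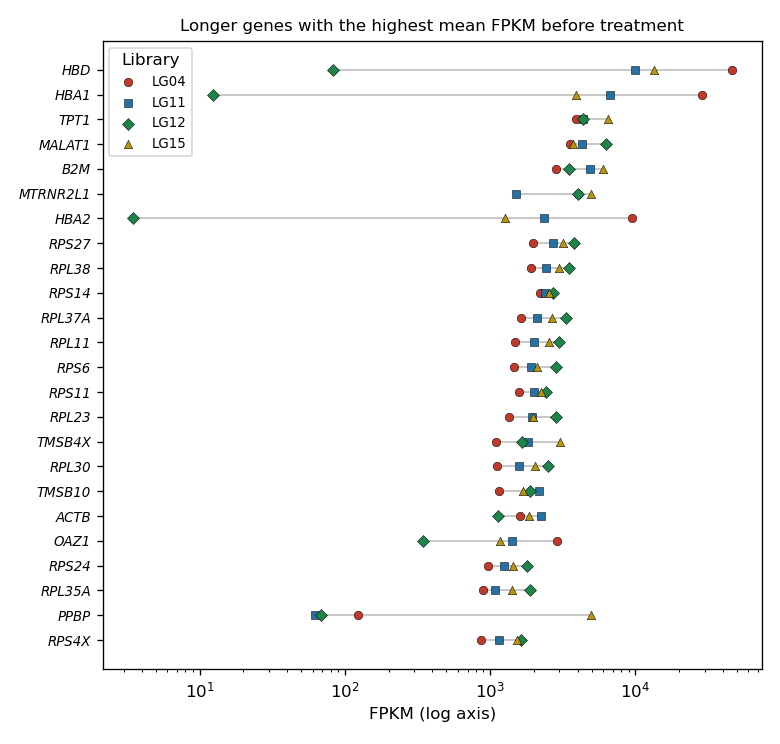
FPKM on a log axis of the 24 longer genes with the highest mean FPKM, 1 row a gene and 1 symbol a library, with a grey line from the lowest to the highest library; HBB is left out because it is listed at 0 in LG04. Most rows are short, as for RPS14 between 2196 and 2694 FPKM, while HBD, HBA1, HBA2 and PPBP span the axis.

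The 50 most abundant genes held 33.4%, 18.5%, 15.5% and 20.4% of the counts, a mean of 22.0% ± 7.90 (SD, n = 4). LG04 stood well above the other 3, and the order of the 4 libraries followed that of their globin share. The 95% Wilson interval of each share of counts given here reached at most 0.0367 percentage points to either side, which covers counting error only, since reads without molecular tags are not independent molecules. By count rather than FPKM, long transcripts joined the leaders: AHNAK, a giant scaffold protein, was at 8859, 12073, 8759 and 12407 CPM, the elongation factor EEF1A1 at 3092, 3799, 3754 and 4294 CPM and MTRNR2L1 at 7182, 2163, 4972 and 7314 CPM. MTRNR2L1 is a nuclear copy of the mitochondrial ribosomal RNA gene, and its reads cannot be told from those of the mitochondrial gene.

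Short noncoding RNA genes reached FPKM values above those of all protein-coding genes other than globins, since FPKM divides by length and few counts on a very short gene give a high value. RPPH1, the RNA of ribonuclease P, was at 27021, 37388, 12994 and 17420 FPKM on 4984, 5553, 1671 and 2669 CPM. The small nucleolar RNA SNORA54 was at 25080.3, 31909, 41352 and 56382 FPKM on only 191, 195, 219 and 356 CPM, and the Cajal-body RNA SCARNA21 at 19558, 26539.6, 23420 and 20979 FPKM. RMRP, the RNA of the mitochondrial RNA-processing ribonuclease, was at 8415, 4778, 13171 and 5215 FPKM. RPPH1 was higher in LG04 and LG11 than in LG12 and LG15, and RMRP was higher in LG04 and LG12. Small and ribosomal RNA genes together held 0.747 to 1.14% of the counts. Of 1307 microRNA genes, 1203 had no count in any library and none had a mean count of 100. Among longer noncoding RNAs, NEAT1, the RNA of nuclear paraspeckles, was at 108, 194, 130.0 and 98.3 FPKM, and MIAT at 31.6, 26.5, 56.7 and 30.8 FPKM. MALAT1 and NEAT1 did not order the animals alike: MALAT1 was highest in LG12 and NEAT1 in LG11.

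A zero in these tables is not always a silent gene. Of the 766 symbols with more than 1 entry in the count tables, 673 had no count, among them TNF, LTB, TAP1 and PSMB9, chosen after their values were seen, and 9 of 29 antigen-presentation genes were at 0, each with more than 1 entry. Some genes had counts and FPKM that parted company. SNORA7A had 0 counts in all 4 libraries but 2119.6, 2924, 5391 and 3079.8 FPKM. KLRK1, which encodes the activating receptor NKG2D, was at 4.08, 4.15, 2.76 and 6.35 CPM and 31.7, 50.9, 54.3 and 73.1 FPKM. These genes are therefore not used to describe the animals, and a 0 for a gene with several entries is not read as absence.

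T-cell genes were present in every animal. By the median SD of genes past the filter they were, with the iNKT-linked list, the steadiest of the lineage lists. CD3E, a signalling chain of the T-cell receptor complex, was at 131, 125, 183 and 152 CPM. CD4, the co-receptor of helper T cells (also carried by monocytes), was at 104, 137, 107 and 154 CPM, and CD8A, the co-receptor of cytotoxic T cells, at 121, 160.4, 89.2 and 172 CPM. CD3E was highest in LG12, CD8A was lowest there, and CD4 was highest in LG15 and lowest in LG04 (SD 0.27). Of 28 T-cell genes past the count filter (29 in the list), 0 had a high SD and 5 a low one, against the 6.41% and 24.1% of all genes, and their median SD was 0.35. LCK, the kinase that starts receptor signalling, was the flattest, at 239, 229.6, 213 and 246 CPM (SD 0.09). LEF1, a transcription factor of naive T cells, was the most uneven, at 181, 126, 421 and 233 CPM (SD 0.73), highest in LG12 and lowest in LG11. IL7R, the survival receptor of resting T cells, was at 126, 152, 236 and 186 FPKM and CD3D at 135, 182, 237 and 299 FPKM, the 2 highest levels per length in the list.

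**Figure D2:**
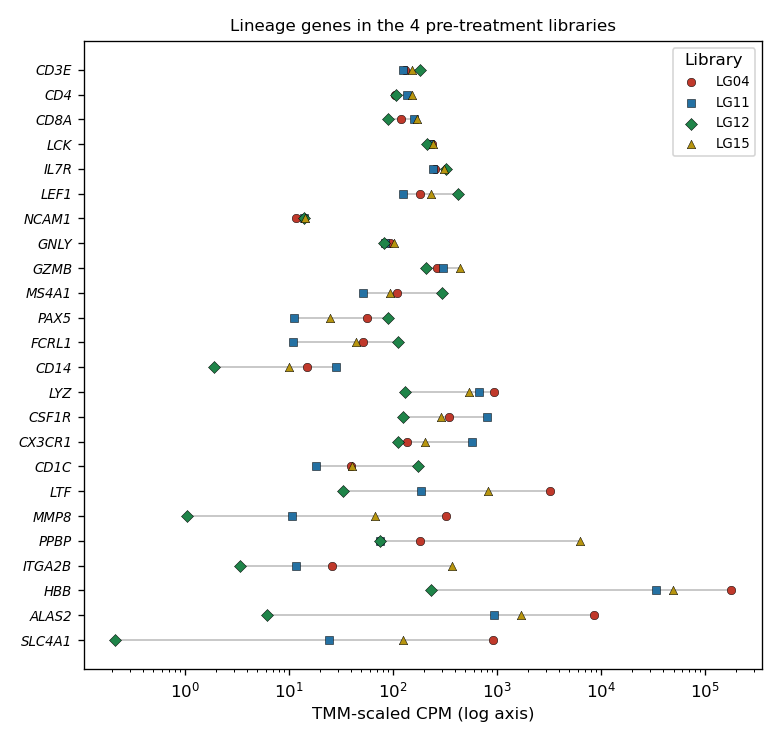
TMM-scaled CPM on a log axis of 24 lineage genes, 1 row a gene and 1 symbol a library, ordered from T-cell genes at the top through NK, B, monocyte and granulocyte genes to platelet and red-cell genes at the bottom. LCK lies between 213 and 246 CPM, whereas ALAS2 runs from 6.16 CPM in LG12 to 8682 in LG04.

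Cytotoxic effector genes were abundant at rest and mostly lowest in LG12. GZMB, the protease that triggers death of target cells, was at 261, 361, 286 and 516 FPKM and 265, 303, 209 and 442 CPM, and its close copy GZMH at 225, 267, 201 and 368 CPM; reads of the pair are hard to tell apart. GNLY, a granule peptide that lyses membranes, was nearly level at 95.0, 84.0, 82.8 and 104 CPM (SD 0.15). NKG7, a granule membrane protein, was at 101, 107, 32.7 and 79.6 CPM, and PRF1, the pore former perforin, at 245, 267, 97.3 and 180.0 CPM. NKG7 and PRF1 were lowest in LG12, as were 10 of the 12 cytotoxic genes past the filter (against 31.2% of all genes). None of the 12 had a high SD, against 6.41% of all genes. CCL5, a chemokine stored in the granules of memory CD8 and NK cells and also in platelets, was at 142, 87.6, 76.5 and 289 CPM and highest in LG15, the library with the most platelet RNA. PRF1 was chosen after its values were seen. The list median of log2 CPM in LG12 lay -0.66 from the 4-library mean, while the other 3 animals lay between 0.11 and 0.17; without LG12 the median SD fell from 0.66 to 0.40.

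NK-cell genes gave lower levels, with a median SD of 0.47 for the 11 past the filter, 7 of which were lowest in LG12. NCAM1 (CD56), below the filter, was at 11.9, 14.0, 14.0 and 14.4 CPM and CD244, a receptor of NK and CD8 T cells, at 23.4, 19.7, 22.1 and 19.5 CPM. IL2RB, the shared beta chain of the IL-2 and IL-15 receptors, was at 300.1, 274, 139 and 221 CPM, and KLRF1 at 39.9, 39.9, 28.9 and 46.8 CPM. NCAM1 was lowest in LG04 by a small margin and IL2RB was lowest in LG12. The one NK-list gene with a high SD was TYROBP, an adaptor that myeloid cells also use heavily, at 99.7, 107, 13.2 and 27.1 CPM. Its low values in LG12 and LG15 and high values in LG04 and LG11 do not follow NCAM1. The killer immunoglobulin-like receptor genes, a family that has diverged between macaques and humans, had no member past the filter; 5 of 16 were at 0, and the highest, KIR3DL2, was at 10.2, 2.14, 7.86 and 4.45 CPM.

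Genes linked to iNKT cells, the target of the later treatment, were mostly shared with other T and NK cells. Only 9 of the 17 listed passed the filter, with a median SD of 0.26 against 0.30 for all genes. SLAMF6, a receptor needed for iNKT development, was at 50.5, 46.5, 52.0 and 51.2 CPM (SD 0.07), and SH2D1A, the adaptor SAP that works with it, at 67.4, 64.2, 66.3 and 79.2 CPM (SD 0.13). KLRB1 (CD161) was at 21.0, 41.1, 19.5 and 51.4 CPM and TBX21, the type 1 effector regulator, at 48.1, 77.2, 41.0 and 59.9 CPM. KLRB1 was higher in LG11 and LG15 than in LG04 and LG12. ZBTB16, the factor most tied to innate-like T cells, had 187, 43, 10 and 30 counts, or 34.7, 5.75, 2.12 and 6.35 CPM, and CD1D, which myeloid and B cells carry, 76, 85, 9 and 20 counts, or 14.1, 11.4, 1.91 and 4.23 CPM. Both fell below the mean count of 100, so neither is in that median. ZBTB16 was 16.3-fold higher in LG04 than in LG12. ZBTB16 is also induced by glucocorticoids and expressed in myeloid cells, and the library with most ZBTB16 was also the one with most granulocyte RNA; the part of that RNA in it was not tested.

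Most B-cell genes were highest in LG12 and lowest in LG11. MS4A1 was at 109.7, 51.8, 298 and 93.6 CPM and PAX5, the factor that commits cells to the B lineage, at 56.4, 11.2, 90.9 and 25.2 CPM. FCRL1, a B-cell receptor-like protein, was at 51.4, 11.0, 112 and 44.0 CPM and had the highest SD of the list, 1.37; it was 10.2-fold higher in LG12 than in LG11. CD37, a tetraspanin that other leukocytes also express, was the flattest at 190.1, 166, 119 and 119 CPM (SD 0.35). Of 14 B-cell genes past the filter (22 listed), 10 were highest in LG12 (against 30.6% of all genes), 13 were lowest in LG11 (against 17.9%) and 6 had a high SD. The components of the B-cell receptor did not follow MS4A1 throughout: CD79A was at 39.7, 15.8, 38.7 and 16.7 CPM and CD79B at 35.6, 11.0, 26.8 and 13.3 CPM, both as high in LG04 as in LG12 or higher. The median SD was 0.95 with all 4 animals and 0.64 without LG11, when 1 of 16 members had a high SD. PAX5 was chosen after its values were seen. Plasma-cell genes did not share this pattern. XBP1, the factor of secretory cells, was at 57.9, 72.9, 66.9 and 79.0 CPM (SD 0.19), and IGJ, the joining chain of secreted IgM and IgA, at 75.5, 34.1, 44.4 and 61.6 CPM. IGJ was highest in LG04. Of 6 plasma-cell genes past the filter none had a high SD, against 6.41% of all genes, which says little for so few genes.

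Monocyte genes ran the other way, with LG11 mostly highest and LG12 lowest. CSF1R, the receptor for the growth factor of monocytes and macrophages, was at 345, 805, 127 and 291 CPM, and CD14, the co-receptor for bacterial lipopolysaccharide, at 14.8, 28.2, 1.91 and 10.2 CPM on 80, 211, 9 and 48 counts. LYZ, the enzyme lysozyme, was at 947, 679.7, 133 and 547 CPM and MNDA, a nuclear protein of myeloid cells, at 161, 308, 72.6 and 120.3 CPM. LG12 had the lowest value of each of these 4 genes; LG11 had the highest of all but LYZ, which was highest in LG04. Of 17 classical monocyte genes past the filter (21 listed), 11 were highest in LG11 (against 27.9% of all genes), 16 lowest in LG12 and 12 had a high SD. S100A8 and S100A9, the calprotectin pair that neutrophils carry in large amounts, broke the pattern: S100A9 was at 1612, 119, 20.4 and 318 CPM and S100A8 at 676, 57.0, 9.77 and 199 CPM, both highest in LG04 as the neutrophil genes below. The median SD of the list, 1.10, was 0.77 without LG11 and 0.76 without LG12, when 4 of 14 and 5 of 18 members had a high SD.

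Genes of nonclassical, CD16-bearing monocytes set LG11 apart more clearly. CX3CR1, the fractalkine receptor that keeps these cells patrolling vessel walls, was at 136, 583, 112 and 203 CPM. TCF7L2, a transcription factor of the subset, was at 96.9, 314, 99.0 and 109 CPM, with 3 animals close together and LG11 above them. VMO1 was at 21.0, 77.8, 3.40 and 5.08 CPM and had the highest SD of the list, 2.00. LG11 was highest for 10 of the 11 genes past the filter, and at least 2-fold above each other animal for 8 (against 1.99% of all genes). FCGR3A, the Fc receptor CD16 of these monocytes and of NK cells, was at 114, 346, 102 and 148 CPM. FCGR3B, a neutrophil copy in humans, was at 60.7, 180.3, 58.8 and 80.7 CPM in the same order of animals as FCGR3A and not in that of the neutrophil genes. The macaque RefSeq annotation lists FCGR3A and no FCGR3B, so the granulocyte list below is also given without it. Without LG11 the median SD of the list fell from 1.05 to 0.53. A pair of receptor families of myeloid cells moved likewise: all 6 leukocyte immunoglobulin-like receptor genes past the filter were highest in LG11 and lowest in LG12, as was each of the 4 toll-like receptor genes past it. LILRB1, an inhibitory member, was at 31.7, 73.6, 15.9 and 28.6 CPM; TLR4, the receptor for lipopolysaccharide, was at 48.6, 106, 15.3 and 51.7 CPM and TLR2 at 37.7, 123, 18.5 and 46.2 CPM.

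Dendritic-cell genes were low and did not move as a group. IRF8, a factor of dendritic cells and monocytes, was at 25.2, 57.8, 31.0 and 46.4 CPM, TCF4, the factor of plasmacytoid dendritic cells, at 70.9, 76.6, 112 and 83.8 CPM, and THBD (CD141) at 28.6, 57.5, 14.0 and 31.8 CPM. IRF8 and THBD were highest in LG11, whereas TCF4 was highest in LG12. CD1C, a lipid-presenting molecule of both B cells and dendritic cells, was at 39.9, 18.3, 173 and 40.2 CPM; its LG12 value was more than 4-fold above that of each other animal, which TCF4, IRF8 and THBD did not share. Only 6 of 20 listed genes passed the filter.

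The neutrophil granule genes LTF and CAMP were readable in all 4 mononuclear preparations and most of all in LG04. LTF, the iron-binding lactoferrin of secondary granules, was at 3246, 187, 32.9 and 827 CPM. CAMP, the antimicrobial cathelicidin, was at 946, 71.7, 13.6 and 198 CPM, MMP8, the neutrophil collagenase, at 323, 10.8, 1.06 and 67.1 CPM and LCN2, a siderophore-binding protein, at 252, 8.83, 0.637 and 32.4 CPM. LG04 was highest and LG12 lowest for each of the 4 genes, with LG15 the second highest and LG11 the third. In LG12, MMP8 rested on 5 counts and LCN2 on 3, at or near the floor of 3 counts, so no fold is given against LG12. Of 11 granulocyte genes past the filter (29 listed), 9 had a high SD, 10 were highest in LG04 and 11 lowest in LG12, against 17.6% and 31.2% of all genes. Several members passed the filter through LG04 alone. For these a high SD and a highest value in LG04 follow in large part from how they were kept. Without FCGR3B, left out after its values were seen, 10 passed, of which 9 had a high SD, 10 were highest in LG04 and 10 lowest in LG12, with a median SD of 2.74. LTF, CAMP, MMP8 and LCN2 encode granule proteins, but not every granule gene of the list was as high. ELANE had 33 counts and PRTN3 50 over the 4 libraries. Among surface receptors of mature neutrophils, CXCR2, the IL-8 receptor, was at 7.61, 6.69, 3.61 and 6.56 CPM, though the macaque annotation does not list this symbol either, and CSF3R, the G-CSF receptor, at 42.9, 31.7, 9.77 and 30.3 CPM. ELANE, PRTN3, CXCR2 and CSF3R were chosen after their values were seen. Without LG04, 6 members passed the filter, FCGR3B among them, with a median SD of 1.90 in place of 2.63; without LG12 it was 1.86.

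Platelet genes set LG15 apart. PPBP, the platelet basic protein and one of the most abundant platelet messages, had 994, 564, 354 and 29810 counts, or 184, 75.4, 75.2 and 6311 CPM. TUBB1, the tubulin of the platelet marginal band, was at 156, 36.6, 43.8 and 3017 CPM and PF4, platelet factor 4, at 31.4, 6.29, 5.31 and 621 CPM. LG15 was highest and LG04 second for all 3, with more than 4-fold between them. Most platelet genes passed the count filter through LG15 alone: 12 of 21 listed passed, and 4 without LG15, so a high SD and a highest value in LG15 follow in large part from how they were kept. With that limit, each of the 12 was at least 4-fold above each other animal in LG15. Their SD ran from 2.66 (NRGN) to 3.37 (CLU, clusterin). ITGA2B, the alpha chain of the platelet fibrinogen receptor, was at 25.8, 11.8, 3.40 and 369 CPM and its beta partner ITGB3 at 37.9, 15.9, 10.8 and 699.5 CPM; both were chosen after their values were seen. Without LG15 the median SD of those that passed was 1.02 in place of 2.91.

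Red-cell genes gave the largest differences of any class, and not only through globin. ALAS2, the first enzyme of heme synthesis in red-cell precursors, was at 8682, 939.9, 6.16 and 1696 CPM. CA1, red-cell carbonic anhydrase, was at 1742, 103, 5.31 and 507 CPM, and SLC25A39, a mitochondrial carrier linked to heme synthesis, at 872, 102, 18.5 and 90.2 CPM. SLC4A1 (band 3) was at 921, 24.6, 0.212 and 125 CPM, on a single count in LG12. All 22 red-cell genes past the filter (30 listed) were highest in LG04 and lowest in LG12, and 21 had a high SD. Only 18 passed without LG04, so for the rest a highest value there follows in large part from how they were kept. The 1 gene without a high SD, TFRC, the transferrin receptor that dividing lymphocytes also use, was at 111, 89.3, 80.9 and 82.4 CPM (SD 0.21). HBA2 had the highest SD of all genes, 5.07, at 6985, 1467, 1.91 and 798 CPM. Without LG12 the median SD of the list was 1.65 in place of 3.29, with 24 of 25 members high.

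**Figure D3:**
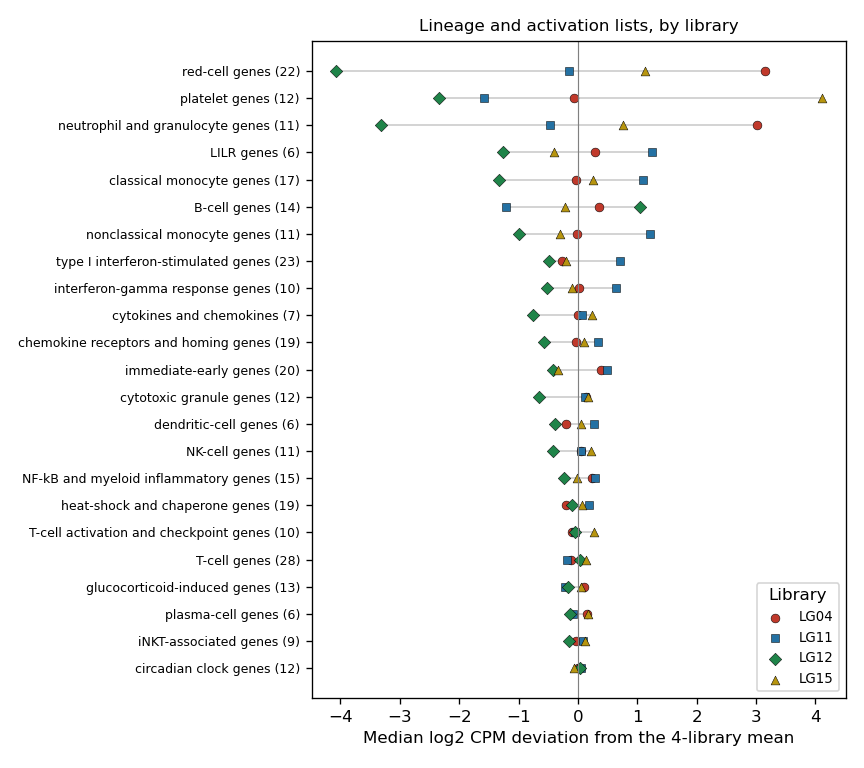
For each lineage and activation list with at least 5 genes past the filter (number of genes in parentheses), the median over its genes of log2 CPM minus the gene's mean over the 4 libraries, 1 symbol a library. The lists are sorted by range, from red-cell genes (-4.07 in LG12 to 3.15 in LG04) to circadian clock genes (-0.06 to 0.06).

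These highest and lowest animals were the same with DESeq2 size factors, with library size alone and with globin genes left out before scaling for the red-cell, platelet, granulocyte, B-cell and both monocyte lists. For T-cell genes they were not: the highest animal was LG15 or LG12 and the lowest LG11 or LG04, depending on the scaling. Library size alone shifted the median gene by -0.24 in LG04 and 0.21 in LG12 on the log2 scale relative to TMM. Genes of hematopoietic progenitors were low, with MYB, a factor of dividing blood precursors, at 15.8, 5.22, 17.4 and 15.7 CPM and no member of the list past the filter.

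Most genes of tissues outside blood were absent or low, but a few were not. Of 397 olfactory receptor genes 344 had no count, as had 86 of 88 keratin-associated protein genes, and no member of either passed the filter. Among liver genes, SERPINA1, the protease inhibitor alpha-1 antitrypsin that myeloid cells also make, was the only member past the filter, at 178, 63.5, 35.9 and 106 CPM, highest in LG04 and lowest in LG12. PECAM1 (CD31), shared by endothelium, leukocytes and platelets, was at 81.5, 183, 106 and 141 CPM, and PDGFRB at 116, 111, 121 and 140.2 CPM (SD 0.15). VWF, the clotting factor of endothelium and platelets, was at 17.1, 11.9, 4.46 and 61.4 CPM and highest in LG15. The giant muscle gene TTN was at 23.2, 10.2, 125 and 25.0 CPM, more than 4-fold higher in LG12 than in any other animal, but at only 0.247, 0.109, 1.40 and 0.369 FPKM over its length.

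Immediate-early genes, which lymphocytes and monocytes switch on within minutes of a stimulus, included some of the more abundant messages in every untreated animal. FOS, a component of the AP-1 transcription factor, was at 446, 556, 412 and 519 FPKM and 1144, 1148, 727 and 1103 CPM. DUSP1, a phosphatase that shuts off MAP kinases, was at 499.7, 926, 313 and 467 CPM, and ZFP36, which destabilizes cytokine messages, at 365, 462, 169 and 220.4 CPM. LG11 had the highest DUSP1 and ZFP36 and LG12 the lowest of all 3. JUNB, a partner of FOS, spread most, at 419, 389, 50.1 and 88.1 CPM (SD 1.54), with LG04 and LG11 well above LG12 and LG15. NR4A2, a nuclear receptor induced by receptor signalling, was the flattest at 201, 196, 199.6 and 147 CPM (SD 0.22). Of 20 such genes past the filter, 11 were highest in LG11, 8 in LG04 and 12 lowest in LG12 (the list median was lowest in LG15 under another scaling), and 2 had a high SD. Monocyte genes had the same highest and lowest animal, LG11 and LG12; their part in this order was not tested.

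Type I interferon-stimulated genes were highest in LG11. IFI6 was at 58.3, 115, 9.13 and 21.0 CPM, the antiviral enzyme OAS2 at 77.6, 204, 81.1 and 112 CPM and IFI44L at 7.24, 45.3, 6.37 and 5.29 CPM. LG11 stood first for each of the 3, and for IFI44L it was the only animal above 10 CPM. Of 23 such genes past the filter (32 listed), 20 were highest in LG11, 6 had a high SD and 6 were at least 2-fold above each other animal in LG11. IFIT1 went against the list, at 77.2, 21.9, 4.88 and 22.7 CPM and highest in LG04, and its relative IFIT1B more so, at 1611, 60.6, 1.27 and 369.7 CPM. IFIT1B had the same order of animals as ALAS2 and CA1. Interferon-gamma response genes followed LG11 as well: WARS, a tRNA synthetase that interferon induces, was at 122, 325, 83.3 and 130.4 CPM and GBP1, a guanylate-binding protein, at 77.8, 188, 52.2 and 84.3 CPM, with 8 of 10 genes past the filter highest in LG11. ANKRD22, in the same list, was instead highest in LG15 at 18.6, 2.94, 2.97 and 100.1 CPM. Without LG11 the median SD of the type I list fell from 0.67 to 0.36 and that of the interferon-gamma list from 0.57 to 0.33. LG11 also had the most monocyte RNA, whose part in these values was not tested.

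Cytokine messages were few before treatment. Among 34 cytokine and chemokine genes 7 passed the filter, and 6 had no count, 3 of them with several entries. TGFB1, a regulatory cytokine, was at 373, 297, 167 and 261 CPM and IL16, a T-cell chemoattractant, at 154, 143, 151 and 166 CPM (SD 0.09), the flattest of the list. IL8, the neutrophil chemoattractant CXCL8, was the most uneven at 183, 27.8, 3.40 and 81.1 CPM (SD 2.43), highest in LG04 and lowest in LG12. IFNG, the effector cytokine of T, NK and iNKT cells, had 16, 69, 27 and 53 counts, or 2.97, 9.23, 5.73 and 11.2 CPM, below the filter; IFNG, IL4 and CSF2 were chosen after their values were seen. IL4, the second hallmark cytokine of iNKT cells, and CSF2 had no count in any library, which allows at most 0.401 CPM in LG11 and 0.637 in LG12. Of 15 NF-kB and myeloid inflammatory genes past the filter 2 had a high SD, with a median of 0.46. The NF-kB inhibitor NFKBIA was at 389.8, 359, 293 and 342 CPM (SD 0.17) and TNFAIP3, another brake on NF-kB, at 641, 541, 431 and 587 CPM (SD 0.25).

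Genes of T-cell activation gave moderate levels. Their median SD was 0.43, above the 0.30 of all genes. None of the 10 past the filter had a high SD, against 6.41% of all genes, which says little for so few genes. CD69, an early activation antigen, was at 177, 261, 216 and 365 CPM and CD44, a memory marker, at 886, 679.9, 479 and 924 CPM. CD69 and CD44 were highest in LG15. ICOS, a co-stimulator, was at 73.1, 38.7, 59.5 and 65.8 CPM, and CD226, an activating receptor that platelets share, at 50.3, 75.4, 77.9 and 176 CPM, highest in LG15. The MHC class II chain HLA-DRA was level at 57.2, 72.6, 68.8 and 73.0 CPM (SD 0.16). Another class II chain, HLA-DPB1, chosen after its values were seen, was not, at 39.2, 16.7, 94.5 and 41.3 CPM (SD 1.01). Both symbols have several entries, so their values are uncertain. Among inhibitory receptors of T cells, PDCD1 (PD-1) was at 11.7, 4.68, 0.425 and 1.69 CPM and LAG3 at 11.0, 8.02, 1.27 and 4.45 CPM. Both were below the filter and chosen after their values were seen. Over the 4 libraries HAVCR2 had 21 counts, PDCD1 108, LAG3 146, TIGIT 242, CTLA4 492 and BTLA 695, so not all were equally low.

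Chaperone and clock genes had a median SD of 0.26 and 0.29, below that of all genes, and glucocorticoid-induced genes one of 0.45, above it. TXNIP, a redox regulator that glucocorticoids induce, was at 1874, 1161, 1306 and 2852 CPM and TSC22D3 (GILZ), a mediator of glucocorticoid action, at 841, 619, 784 and 1106 CPM. Both were highest in LG15 and lowest in LG11, while CXCR4, the bone-marrow homing receptor, was nearly level at 564, 499, 658 and 623 CPM (SD 0.17). NR1D2, a repressor of the circadian clock, was at 253, 273, 275 and 269.7 CPM (SD 0.06), and PER1, a clock gene that glucocorticoids also induce, at 262, 199.5, 162 and 125 CPM. Of 12 clock genes past the filter none had a high SD, against 6.41% of all genes, which says little for so few genes. Among chaperones, HSP90AB1 was the flattest at 474, 504, 509 and 476 CPM (SD 0.05), and HSPA8, the constitutive HSP70, was at 694, 1009, 755 and 943 CPM (SD 0.26). Homing genes were less even: ITGB2, the beta-2 integrin chain of all leukocytes, was at 879, 1559.9, 243 and 429 CPM and CCR1, a chemokine receptor of monocytes, at 5.38, 34.5, 5.95 and 26.3 CPM, both highest in LG11.

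The classes that varied least were mostly machinery that every cell runs. Among lists with at least 10 genes past the filter, subunits of the SWI/SNF chromatin remodeler had the lowest median SD, 0.18, with 11 of 17 low, against 24.1% of all genes. Translation factors (0.19, 20 of 37 low), X-inactivation and Y-linked genes (0.20, 5 of 10), mediator subunits (0.20, 7 of 16), ubiquitin-specific proteases (0.20, 18 of 37), ubiquitin genes (0.21, 5 of 10) and splicing factors (0.21, 19 of 43) followed. All 10 genes of the X-inactivation and Y-linked list past the filter were Y-linked. Its X-inactivation genes XIST and TSIX had 2 and 24 counts over the 4 libraries. Cytosolic ribosomal protein genes had a median SD of 0.22, with 33 of 75 low and none high. SMARCD1, a remodeler subunit, was at 75.2, 73.4, 81.1 and 80.7 CPM (SD 0.07), the initiation factor EIF1 at 631, 611, 564 and 636 CPM (SD 0.08) and the poly(A)-binding protein PABPC1 at 1259, 1349, 1214 and 1176 CPM (SD 0.08). Single members of such classes could still be uneven: the splicing factor SF3A2 was at 39.0 CPM in LG04 and 5.08 CPM in LG15, with the others between (SD 1.37) and RBX1, a ubiquitin ligase subunit, at 98.0, 41.3, 24.2 and 105 CPM (SD 1.01). SF3A2 and RBX1 were both more than 2-fold higher in LG04 than in LG12. Scaled to library size alone, 439 genes had a low SD, and the medians of SWI/SNF subunits and ribosomal protein genes were 0.32 and 0.34. Several lineage lists lay at the other end, at 3.29 for red-cell, 2.91 for platelet, 2.63 for granulocyte, 1.10 for classical monocyte and 0.95 for B-cell genes. The platelet, granulocyte and red-cell medians included members that passed the filter through 1 library, and without LG15 for platelet and LG04 for the other two they were 1.02, 1.90 and 3.50. Other lineage lists did not lie there: the median was 0.26 for iNKT-associated, 0.35 for T-cell, 0.47 for NK-cell and 0.51 for plasma-cell genes. Of 155 lineage genes past the filter, 71 had a high SD and 12 a low one, against 6.41% and 24.1% of all genes. The 71 include members that passed the filter through 1 library, whose high SD follows in large part from how they were kept.

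**Figure D4:**
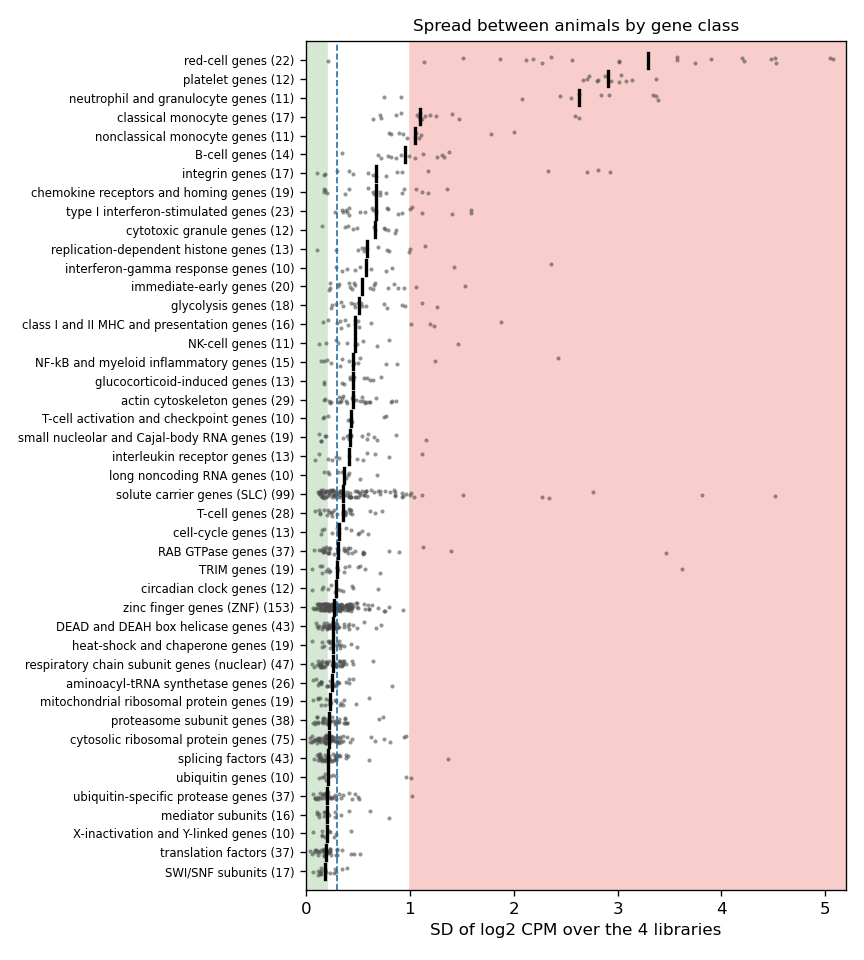
SD of log2 CPM over the 4 libraries of each gene past the filter (points, jittered vertically), by class, for classes with at least 10 such genes (number in parentheses); black bars are class medians and the dashed line is the median of all genes, 0.30. The green band marks an SD of at most 0.2 and the red area one of at least 1; the class medians run from 0.18 (SWI/SNF subunits) to 3.29 (red-cell genes).

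Some core classes carried a shift of their own. Glycolysis genes had a median SD of 0.51, with 14 of 18 lowest in LG12, against 31.2% of all genes. GAPDH, a glycolytic enzyme often used as a reference gene, was at 409, 399, 175 and 356 CPM, and HK3, the hexokinase of myeloid cells, at 267, 286, 52.7 and 72.8 CPM (SD 1.26). Actin cytoskeleton genes were lowest in LG12 for 25 of 29 genes under the TMM scale, including ARPC1B, a subunit of the actin-nucleating complex, at 326, 357, 95.6 and 197 CPM; under another scaling the list was lowest in LG04. Of 153 zinc-finger genes 90 were highest in LG12, against 30.6% of all genes, with none of high SD and a median of 0.27. A trend with length ran beside these: the shortest of 5 equal groups of genes had a median deviation of -0.18 in LG12 and 0.13 in LG11 on the log2 scale, and the longest group 0.06 and -0.06. Its part in the values above was not tested.

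The 10 genes with the lowest SD were FAM123B, RCBTB1, PAG1, ADD1, GOSR2, RNF115, TRAF6, PKNOX1, SYF2 and EIF3J. PAG1, an adaptor that holds LCK-family kinases in check, was at 638, 629, 650.1 and 654 CPM (SD 0.03). ADD1, adducin of the membrane skeleton, was at 275, 279, 286 and 275 CPM (SD 0.03), and TRAF6, a signalling ubiquitin ligase, at 49.4, 51.8, 51.4 and 51.9 CPM (SD 0.03). Values this close are at the limit of what counting allows. The SD expected from counting alone had a median of 0.08, and TRAF6, with an expected 0.09, lay below it; 6672 of 6818 genes lay above theirs.

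Among the genes with the highest SD were HBA2, HBA1, SLC4A1, ALAS2, IFIT1B, HBE1, PAPSS2, ACSL6 and HBB, all but PAPSS2 highest in LG04. ACSL6, an acyl-CoA synthetase, was at 373, 20.7, 0 and 53.1 CPM. PAPSS2, which makes the sulfate donor of the cell, was at 6.87, 0, 0 and 166 CPM, with 37, 0, 0 and 782 counts. Among the 437 genes of high SD, 193 were highest in LG04, 117 in LG11, 109 in LG15 and 18 in LG12. The lowest value was in LG12 for 342 of them. Some of the 437 passed the filter through their highest library alone, as PAPSS2 did. Most of the 437 (366) were in none of the lineage lists, which held only 155 of the 6818 genes past the filter. Of those 155, 71 had a high SD, against 6.41% of all genes.

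**Figure D5:**
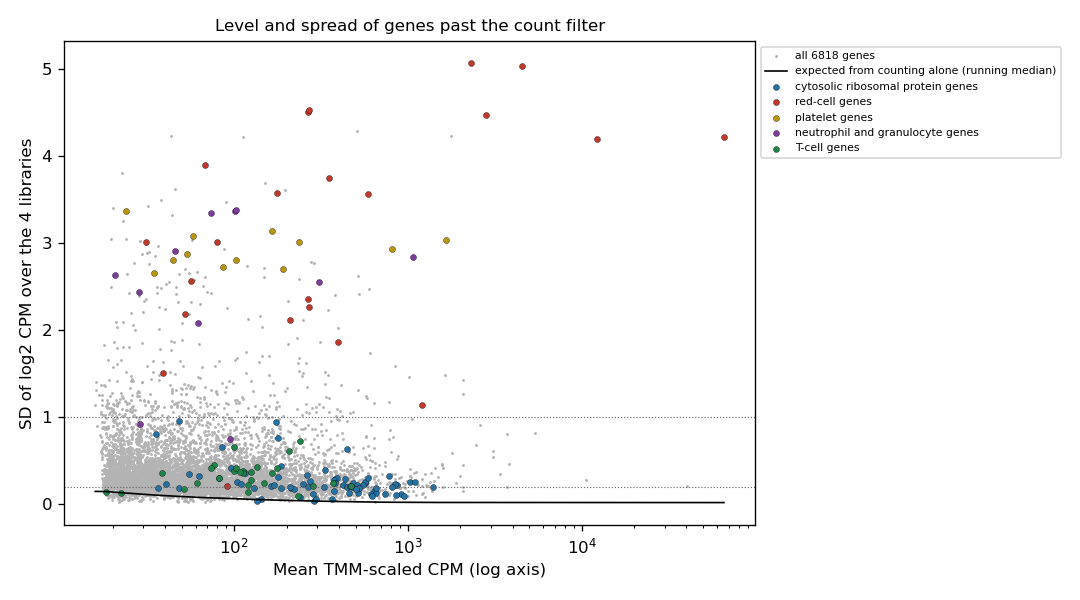
SD of log2 CPM over the 4 libraries against mean TMM-scaled CPM (log axis) of the 6818 genes past the filter, with 5 classes in colour, the spread expected from counting as a black line, and dotted lines at 0.2 and 1. Ribosomal protein and T-cell genes lie below 1 at all levels, and red-cell genes reach 5.07.

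Genes that set 1 animal apart were counted as those at least 4-fold above, or below, each of the other 3 libraries. There were 53 above in LG04 (0.777% of genes past the filter), 62 in LG15 (0.909%), 2 in LG11 (0.0293%) and 2 in LG12 (0.0293%). A gene can pass the filter through the 1 library where it is high, as SLC7A4 did. The counts above the others therefore follow in part from how genes were kept. Below, there were 70 in LG12 (1.03%), 1 in LG04 (0.0147%) and none in LG11 or LG15. The largest gap in LG04 was that of SLC7A4, a solute carrier with similarity to cationic amino acid transporters, which had 484, 1, 1 and 0 counts. ALOX15, the 15-lipoxygenase of maturing red cells and eosinophils, was at 119, 4.55, 0 and 4.87 CPM, and PHOSPHO1, a phosphatase, at 135, 8.29, 0 and 8.47 CPM. HDAC11 was at 203, 9.36, 2.55 and 19.1 CPM and E2F2, a cell-cycle factor that acts in red-cell precursors, at 217, 13.2, 4.67 and 20.7 CPM. Of the 53 genes of LG04, 18 were in a lineage list, against 155 of the 6818 genes past the filter.

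In LG15 the genes outside the lists stood as far out as the platelet genes themselves. PDE3A, a phosphodiesterase of platelets and heart, was at 3.90, 2.67, 1.27 and 133 CPM, NEXN, an actin-binding protein, at 4.27, 1.60, 2.12 and 121 CPM and DOK6, an adaptor protein, at 3.90, 2.01, 1.06 and 119.6 CPM. RAB6B, a trafficking GTPase, was at 13.9, 1.74, 1.70 and 339 CPM. Each was more than 4-fold higher in LG15 than in the next animal. PDE3A, NEXN, DOK6 and RAB6B passed the filter through LG15 alone, so such gaps follow in part from how they were kept. Of the 62 genes of LG15, 12 were in a lineage list, against 155 of the 6818 genes past the filter. Below the others, LG15 had TRIM52 at 50.7, 62.2, 57.3 and 21.2 CPM and TECPR1 at 18.4, 24.9, 18.3 and 6.99 CPM, gaps of 2- to 4-fold.

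LG11 was set apart by IFI44L and by DES, the intermediate filament desmin, at 25.8, 141, 24.4 and 15.7 CPM. ADM, the peptide adrenomedullin, was at 9.47, 42.3, 6.80 and 10.8 CPM and DNASE2, a lysosomal nuclease of phagocytes, at 35.1, 259, 30.8 and 67.5 CPM in that order of animals. LG12 was set apart by TTN and CD1C, and after them by XKRX at 17.3, 8.02, 56.7 and 12.9 CPM and DGKA, a lipid kinase that restrains T-cell signalling, at 245, 161, 634 and 225 CPM. The one gene at least 4-fold below the rest in LG04 was SHISA4, at 0, 45.9, 1.27 and 33.5 CPM, though LG12 was close to LG04 and only LG11 and LG15 were high. COL11A1, a fibrillar collagen chain, was at 11.1, 30.5, 56.9 and 98.9 CPM and lowest in LG04.

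Across all genes past the filter, the median absolute difference between 2 libraries ran from 0.28 (LG04 and LG11) to 0.41 (LG11 and LG12) on the log2 scale, and 8.35% to 16.3% of genes were 2-fold or more apart. As a check for a library deposited more than once, the chi-square per gene was at least 80.9 (LG11 and LG15). Identical columns would give no chi-square at all, and separate reads of the same library a value near 1. The check bears on nothing else. The first principal component held 53.1% of the variance of log2 CPM and placed LG12 opposite LG04; the second, 28.9%, placed LG15 opposite LG11 and the third, 17.9%, LG11 opposite LG04.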

How the data were processed

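Blood drawn into EDTA was layered on Ficoll, the mononuclear layer was frozen, and RNA freed of ribosomal RNA went into strand-specific libraries read from 1 end, per the labels' protocols. The authors deposited raw gene counts and FPKM for each animal, and the columns of the first bleed were used. Human builds (GRCh37 and hg19) are listed, per the submitters' processing notes, and the deposited tables carry human symbols. The tools they list are Trimmomatic, FastQC, STAR, HTSeq, edgeR and DESeq, with no order or role. Tool versions, the annotation, the counting strand and the FPKM program were not given in the sources used here. Genes that overlap or have near-identical copies are therefore uncertain. Of 23602 symbols, 15474 were found in a RefSeq annotation of the macaque, used for names only.

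The 24369 deposited count entries were summed by symbol; FPKM likewise. The 16 repeat columns of these libraries held the same values as the first copy, and no column was left without a sample. Counts were scaled by TMM (edgeR 4.0.16, R 4.3.3) and CPM on the log2 scale used a prior count of 2. Genes with a mean count of at least 100 entered the SD, and the step was tested on simulated data. There was 1 group, so no test between groups was made and no p-value is given. Genes were named by rule: the 15 highest mean FPKM and 10 highest mean counts, in each list up to 6 members by FPKM and those of highest and lowest SD, the 10 highest and lowest SD of all genes, the largest gaps of each library and a set of defining markers. The 66 gene lists, the members and the rule were chosen with earlier results of these data known. Alternatives were other scalings, filters, prior counts, measures of spread and each animal left out. Sequences and coordinates were not used here, and a few genes that the rule names are not reported here.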

Additional observations from a re-analysis of the deposited data

Results flagged for a closer look

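In a group of 4, a library was noted when its gap to the nearest other, as a share of the group's range of log2 CPM, passed Dixon's 95% critical value. Chance alone passes about 1 in 20 groups, and 9 of 187 named genes and 4 of 52 lists passed, which for the genes is about the share that chance passes. SLC7A4 and IFI44L were named for their gap in 1 library, so their ratio is a description. LG12 stood low for FOS (ratio 0.912), a component of AP-1, and for GAPDH (0.838), and high for the Y-linked UTY (0.871). LG11 stood high for IFI44L, an interferon-stimulated gene (0.858), and for TCF7L2 (0.900), a factor of nonclassical monocytes, and low for MYB (0.911), which had 85, 39, 82 and 74 counts. LG04 stood high for SLC7A4 (0.916) and low for NCAM1 (0.861), whose 4 values were within 1.21-fold. LG15 stood low for NR4A2 (0.921). Among list medians, LG12 stood low for cytotoxic granule genes (0.933) and high for long noncoding RNA genes (0.839). LG15 stood high for T-cell activation and checkpoint genes (0.865), and LG11 high for RNA polymerase II subunits (0.888).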

How the results depend on the processing

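The number of genes with a mean CPM of at least 1 was 12146 and stayed between 11311 (FPKM of at least 1 instead) and 12244 (globin genes left out) under each alternative run, and 12090 to 12162 with 1 animal left out. The share of the 50 leading genes was 22.0%, 16.0% without globin genes, and 18.2 to 24.1% with 1 animal left out. Genes of high SD numbered 437; leaving out 1 animal gave 396 to 500, of which 304 to 347 were the same genes. They numbered 956 at a mean count of at least 20, 1580 with no filter and 140 at a mean count of at least 500, as more or fewer genes entered, 288 on log2(FPKM + 1) and 201 by edgeR's tagwise coefficient of variation. Genes of low SD numbered 1643; leaving out 1 animal gave 1737 to 2460. They numbered 439 with library size alone (274 of them the same genes), 763 at a mean count of at least 500, 459 on log2(FPKM + 1), which is also scaled to library size, and 0 by the tagwise coefficient, which is shrunk toward a common 0.387. Of the list medians recomputed, 656 moved by less than 1.5 times and 63 by more. Depth limited the low end: the median SD expected from counting was 0.08, and LG12 had the fewest counts. No paired analysis was possible because there is 1 group and each animal has 1 library in it.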

Other observations

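In further gene families the share of members highest or lowest in 1 animal differed from that of all genes past the filter. Replication-dependent histone genes, which package newly copied DNA, were lowest in LG12 for 11 of 13 genes past the filter (against 31.2% of all genes) and highest in LG11 for 8 (against 27.9%). The linker histone HIST1H1E was at 212, 265, 106 and 142 CPM and HIST2H2AC at 71.6, 79.8, 26.1 and 34.9 CPM, whereas HIST1H1D was level at 24.9, 26.7, 29.1 and 28.6 CPM (SD 0.10). Histone copies are near-identical, and several have more than 1 entry, so single values are uncertain. Proteasome subunit genes were highest in LG11 for 29 of 38 (against 27.9%) by small margins, with a median SD of 0.23; PSMB4, a core-particle subunit, was at 67.0, 94.2, 70.3 and 82.6 CPM. Nuclear genes of the respiratory chain were highest in LG15 for 23 of 47 (against 23.8%), with none of high SD, but LG12 was highest under another scaling. ATP5A1, the alpha subunit of ATP synthase, was at 374, 434, 464 and 495 CPM.

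DEAD and DEAH box helicases, which unwind RNA, were highest in LG12 for 29 of 43 (against 30.6%), and their median SD fell from 0.26 to 0.13 without LG12. Aminoacyl-tRNA synthetases, which charge tRNA, were highest there for 16 of 26. The Y-linked genes DDX3Y, an RNA helicase, at 291, 300.4, 384 and 271 CPM, and UTY, a histone demethylase, at 190.4, 185, 286 and 196 CPM, were read in all 4 libraries, and the labels used here give no sex. The abundance of the noncoding RNA KCNQ1OT1 varied most among the listed long noncoding genes, at 268, 155, 330.1 and 118 CPM (SD 0.69).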
